A study of Homo sapiens with 21 samples.

Results

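The chemokines that lung epithelial cells make were followed as 10 genes: CXCL1, CXCL2, CXCL3, CXCL5, CXCL6, CXCL8, CXCL16, CCL2, CCL20 and CX3CL1. They were taken by gene symbol, and 16 of the 41091 probe sets that carry exactly 1 symbol belong to them, out of 19775 genes on the array. RNA came from 21 Affymetrix arrays in 7 groups of 3 biological replicates, and the study asked how the DNA repair enzyme APE1, and the acetylation of its N-terminal end, alter gene expression. A549, a lung adenocarcinoma cell line, was transfected with APE1 siRNA or control siRNA, and each was harvested with or without trichostatin A (TSA), an inhibitor of histone deacetylases, at 100 ng/ml for 4 hours. BEAS-2B, an immortalized bronchial epithelial line, was transfected with expression constructs for ND42 APE1, which lacks the N-terminal domain, K6R/K7R APE1, in which a pair of acetylable lysines was replaced by arginine, or wild-type (WT) APE1. The 4 A549 groups were APE1 siRNA with TSA, control siRNA with TSA, APE1 siRNA and control siRNA, and the 3 BEAS-2B groups were ND42, K6R/K7R and WT. One APE1 siRNA sequence served all arrays, the BEAS-2B cells were transiently transfected and still carried their own APE1, and no arrays of untransfected or empty-vector BEAS-2B cells were analysed here. The labels place the 3 constructs in 1 plasmid, whereas the methods describe constructs in different plasmids, and the labels give the harvest as 48 hours after transfection while the methods give a longer time for siRNA.

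Chemokines are small secreted proteins that draw leukocytes along a concentration gradient by binding G protein-coupled receptors. CXCL1, CXCL2, CXCL3, CXCL5, CXCL6 and CXCL8 (interleukin-8) carry the ELR motif, act on CXCR2 and in part on CXCR1, and recruit neutrophils. CCL2 recruits monocytes through CCR2, and CCL20 recruits dendritic cells and lymphocytes through CCR6. CXCL16 and CX3CL1 (fractalkine) are made as transmembrane proteins, bind CXCR6 and CX3CR1, and are released when ADAM proteases cut them. In airway epithelium, interleukin-1 and TNF induce most of these genes through NF-kB, a dimeric factor that binds kB sites near their start sites. APE1 is also known as Ref-1, a redox activator of transcription factors that include NF-kB and AP-1.

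Promoter sequences from RefSeq (GRCh38.p14) were matched for 7 of the 10 genes, and CXCL16, CCL2 and CX3CL1 are named only. The 100 bases before the annotated start are printed here because CXCL1, CXCL2 and CXCL3 are close copies of each other, as are CXCL5 and CXCL6, and the members of the second pair moved in opposite directions in BEAS-2B cells. Each sequence runs 5′ to 3′ on the strand of the gene, and capitals mark matches to the kB-like letters GGNNNTTCC on either strand.
CXCL1 (chr4:73869293-73869392, + strand): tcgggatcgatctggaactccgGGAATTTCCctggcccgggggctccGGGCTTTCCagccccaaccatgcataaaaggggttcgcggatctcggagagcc
CXCL2 (chr4:74099196-74099295, - strand): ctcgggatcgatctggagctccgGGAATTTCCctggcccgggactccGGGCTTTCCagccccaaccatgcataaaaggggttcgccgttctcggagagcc
CXCL3 (chr4:74038690-74038789, - strand): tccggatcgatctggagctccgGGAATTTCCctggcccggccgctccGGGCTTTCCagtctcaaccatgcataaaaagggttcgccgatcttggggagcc
CXCL5 (chr4:73998678-73998777, - strand): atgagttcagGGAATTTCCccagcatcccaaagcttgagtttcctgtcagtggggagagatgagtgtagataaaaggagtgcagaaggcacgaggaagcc
CXCL6 (chr4:73836578-73836677, + strand): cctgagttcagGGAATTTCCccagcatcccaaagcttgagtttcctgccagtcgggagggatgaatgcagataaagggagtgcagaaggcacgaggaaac
CXCL8 (chr4:73740469-73740568, + strand): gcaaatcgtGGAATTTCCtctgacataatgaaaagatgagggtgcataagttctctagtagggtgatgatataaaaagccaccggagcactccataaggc
CCL20 (chr2:227813742-227813841, + strand): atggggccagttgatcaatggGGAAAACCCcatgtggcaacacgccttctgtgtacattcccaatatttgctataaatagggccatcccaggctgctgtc
The kB-like letters were in the windows of all 7 genes, 2 times in CXCL1, CXCL2 and CXCL3 and once in the others. They were in 2078 of 27305 RefSeq promoters (7.61%) in a window of the same length, and 2 or more matches were in 116 (0.425%). The AP-1-like letters TGANTCA, searched on both strands, were in 0 of the 7 windows and in 738 of the 27305 promoters (2.7%). Bases further upstream than 100 were not searched for either set of letters, so sites there would have been missed. These letters were chosen after the sequences had been read, a match is not a binding site, and the windows of close copies are not separate observations. The window of CXCL1 was identical to that of CXCL2 at 94.1% of 101 aligned columns and to that of CXCL3 at 90.0% of 100, and the windows of CXCL5 and CXCL6 were identical at 90.1% of 101. By contrast, CXCL8 was identical to the other ELR genes at 43.0% to 54.2% of columns. The 6 ELR genes lie on chromosome 4 and, among the members there, stand in the order CXCL8, CXCL6, CXCL1, CXCL5, CXCL3 and CXCL2.

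**Figure D1:**
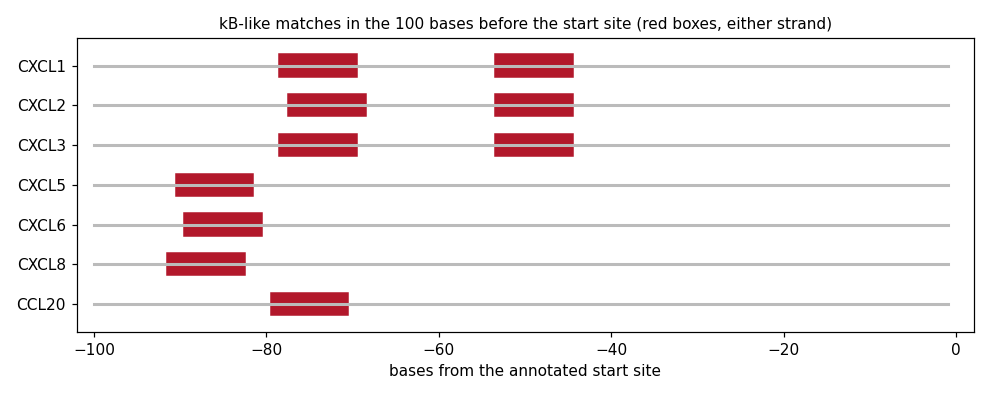
Positions of matches to the kB-like letters (red boxes, 9 bases each, either strand) in the 100 bases before the annotated start of 7 chemokine genes; the x axis gives bases from the start. CXCL1, CXCL2 and CXCL3 each hold 2 matches, and all matches lie between bases -91 and -45.

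Values are log2 RMA levels, as deposited, and the array medians show that each cell line was normalized on its own, as it was fitted here, so no level was tested between the lines. Groups were compared by limma. Calls needed a p below 0.05 after Benjamini-Hochberg adjustment and a log2 change of 0.32 or more in size. Where several probe sets carried a gene, the brightest one on average in that cell line stood for it, and the others are given as the second or the dimmer probe sets. Replicates of a group correlated at r = 0.994 to 0.999 across probe sets, except A549 APE1 siRNA replicate 2, which correlated at 0.876 to 0.896 with the remaining arrays of its cell line. That array also had the largest gap between the 3′ and 5′ probe sets of ACTB, at 6.08 against 0.43 and 0.58 on the other APE1 siRNA arrays. The chemokine changes in A549 cells are therefore given with and without it, and the correlations between genes only with it. APEX1, the gene of APE1, changed after APE1 siRNA by -2.26 with TSA (SE 0.36, adjusted p = 0.00482) and by -2.64 when TSA was absent (SE 0.36, adjusted p = 0.00222). Both APEX1 values come from the fit that includes replicate 2. On the APE1 siRNA arrays without TSA, APEX1 was at 10.05, 8.43 and 10.18, the low value being that of replicate 2. The control siRNA mean was 12.19, so the -2.64 is enlarged by that array and the 2 sizes are not compared. In BEAS-2B cells APEX1 changed by -0.17 (SE 0.19) with ND42 and by 0.00 (SE 0.19) with K6R/K7R against WT, where transcripts of the construct and of the cell's own gene cannot be told apart. Of 6 epithelial markers KRT7, KRT8 and KRT18 were above the array median in control A549 and WT BEAS-2B cells, whereas EPCAM, CDH1 and KRT19 were below it. The pan-leukocyte marker PTPRC averaged between 4.19 and 4.73 in every group, below the group medians of 5.63 to 6.42. It did not stand for its list, since 4 or 5 of the 7 leukocyte markers averaged above the group median in each group.

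In BEAS-2B cells, both APE1 mutants had lower levels of most neutrophil chemokines than WT APE1, and CXCL6 was higher. CXCL8, CXCL1, CXCL2 and CXCL3 were 2.02 to 3.00-fold lower, CXCL5 was lower by less, and CXCL6 was 1.74-fold higher with ND42 and 1.84-fold higher with K6R/K7R. Of the 10 genes, 1 was higher and 5 were lower with ND42, where 17.8% of all 19775 genes were called (10.3% higher and 7.50% lower). With K6R/K7R, 3 were higher and 6 lower, where 26.0% of all genes were called (14.1% higher and 11.9% lower). The median change of the 10 genes was -0.32 with ND42 and -0.41 with K6R/K7R, against -0.00 and -0.01 over all genes. Both comparisons share the WT arrays, so they are not separate evidence of direction. In bulk RNA, fewer transfected or chemokine-making cells and less RNA per cell cannot be told apart.

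CXCL8, the main neutrophil attractant of airway cells, was at 11.30, 11.32 and 11.63 on the ND42 arrays, at 11.40, 11.37 and 11.52 on the K6R/K7R arrays and at 12.84, 12.71 and 12.87 on the WT arrays. Every mutant array was low and every WT array was high, with no overlap. The log2 fold change was -1.39 (SE 0.09, adjusted p = 7.99e-06) for ND42 against WT and -1.38 (SE 0.09, adjusted p = 7.58e-06) for K6R/K7R against WT. Its second probe set gave larger changes of -2.81 (SE 0.14) and -2.68 (SE 0.14) for the same comparisons, so the direction was shared by both probe sets and the size was not.

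CXCL1 was at 10.09, 10.03 and 10.43 on the ND42 arrays, at 10.39, 10.28 and 10.40 on the K6R/K7R arrays and at 11.42, 11.54 and 11.59 on the WT arrays. The WT arrays stood apart from all 6 mutant arrays. Its changes were -1.33 (SE 0.10, adjusted p = 1.62e-05) for ND42 and -1.16 (SE 0.10, adjusted p = 2.74e-05) for K6R/K7R. CXCL2, its closest copy by promoter sequence, was at 9.34, 9.26 and 9.45 with ND42, at 9.67, 9.47 and 9.61 with K6R/K7R and at 10.44, 10.61 and 10.75 with WT. Again the mutant and WT arrays did not overlap, and the changes were -1.25 (SE 0.09) and -1.02 (SE 0.09). The dimmer probe sets of CXCL2 averaged 4.42 to 5.22 in all BEAS-2B groups, below the array medians, and were not called. CXCL3, the third close copy, was at 7.22, 7.23 and 7.34 with ND42, at 7.58, 7.38 and 7.31 with K6R/K7R and at 8.60, 8.83 and 9.10 with WT. No mutant array reached the lowest WT array, and the changes were -1.58 (SE 0.12, adjusted p = 1.61e-05) for ND42 and -1.42 (SE 0.12, adjusted p = 2.34e-05) for K6R/K7R. The probe sets of CXCL2, CXCL5 and CXCL8 used here end in _x_at, a suffix that the array maker gives to sets whose probes can also bind other transcripts.

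CXCL5 and CXCL6, whose promoter windows are near copies and which are both neutrophil attractants, moved apart. CXCL5 was at 9.22, 9.09 and 9.18 on the ND42 arrays, at 9.23, 9.17 and 9.07 on the K6R/K7R arrays and at 9.66, 9.60 and 9.66 on the WT arrays. Its groups were tight, the mutant arrays all lay below the WT arrays, and the changes were -0.48 (SE 0.06, adjusted p = 0.000332) and -0.49 (SE 0.06, adjusted p = 0.000241) for ND42 and K6R/K7R. The dimmer probe sets of CXCL5 had changes of -0.33 to -0.06 and were not called, and the mean of its probe sets lost the K6R/K7R call (-0.24). CXCL6 was at 10.61, 10.61 and 10.83 with ND42, at 10.74, 10.73 and 10.80 with K6R/K7R and at 10.07, 9.94 and 9.64 with WT. All 6 mutant arrays were above all WT arrays, and the changes were 0.80 (SE 0.10, adjusted p = 0.000423) and 0.88 (SE 0.10, adjusted p = 0.000193).

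**Figure D2:**
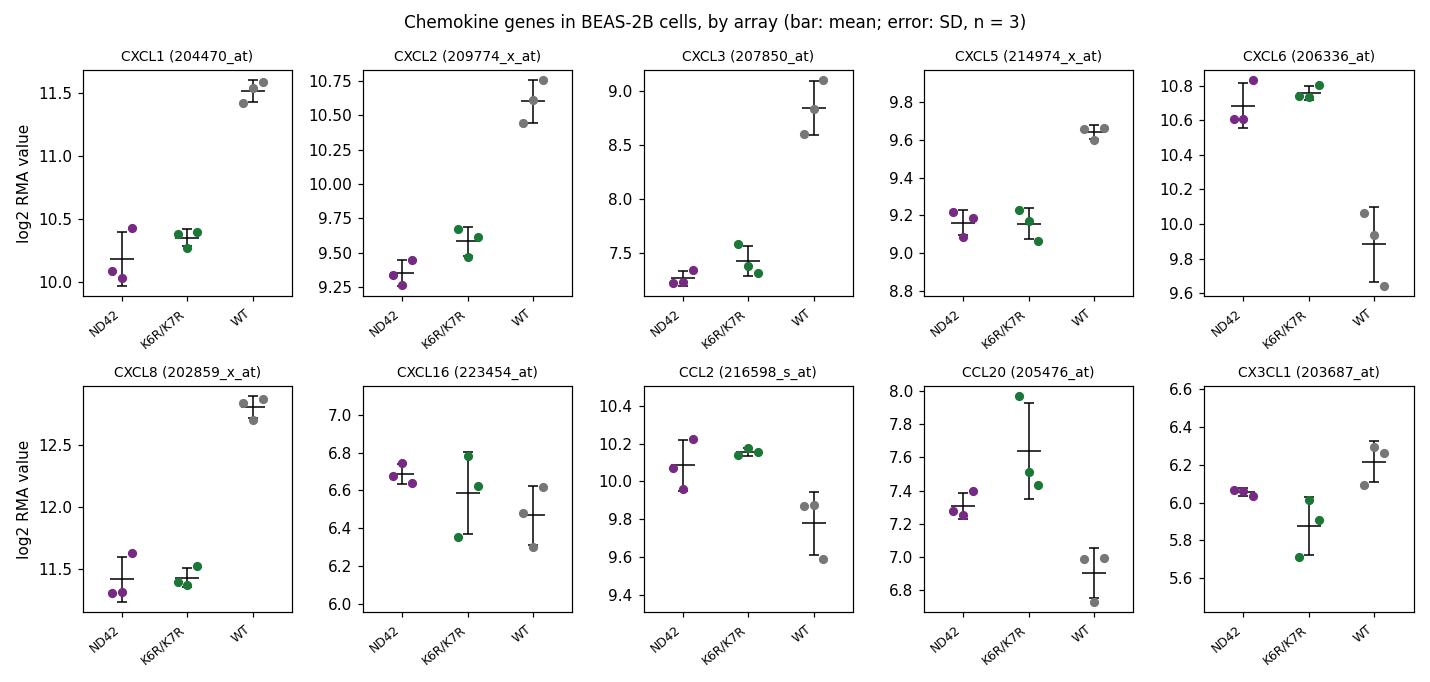
Log2 RMA level of each chemokine gene on the 9 BEAS-2B arrays (points), with the mean and SD of ND42, K6R/K7R and WT (n = 3 each); each panel has its own y axis. CXCL1, CXCL2, CXCL3, CXCL5 and CXCL8 are lower and CXCL6 is higher on all 6 mutant arrays than on all WT arrays.

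The monocyte attractant CCL2 was at 10.07, 9.96 and 10.22 with ND42, at 10.14, 10.18 and 10.15 with K6R/K7R and at 9.87, 9.88 and 9.59 with WT. The mutant arrays lay just above the WT arrays. CCL2 was called with K6R/K7R (0.38, SE 0.09, adjusted p = 0.00944), and with ND42 its change of 0.31 (SE 0.09, adjusted p = 0.0366) was under the minimum size. CCL20 was at 7.28, 7.25 and 7.40 with ND42, at 7.97, 7.51 and 7.43 with K6R/K7R and at 6.99, 6.73 and 6.99 with WT. K6R/K7R replicate 1 was the highest array, and the groups did not overlap with WT. CCL20 rose with K6R/K7R (0.73, SE 0.13, adjusted p = 0.00211), and its value with ND42 was 0.41 (SE 0.13, adjusted p = 0.0545).

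Of the membrane-bound chemokines, CX3CL1 was at 6.07, 6.06 and 6.03 with ND42, at 5.71, 6.01 and 5.91 with K6R/K7R and at 6.09, 6.29 and 6.26 with WT. The ND42 arrays came within a few hundredths of the lowest WT array. CX3CL1 was called lower with K6R/K7R (-0.34, SE 0.08, adjusted p = 0.0101) and had -0.16 (SE 0.08, adjusted p = 0.213) with ND42, and its second probe set was not called. CXCL16 was at 6.68, 6.75 and 6.64 with ND42, at 6.35, 6.78 and 6.63 with K6R/K7R and at 6.48, 6.30 and 6.62 with WT, and it was not called. Here K6R/K7R and WT overlapped, and the 95% intervals of the change were -0.02 to 0.47 for ND42 and -0.13 to 0.36 for K6R/K7R. The K6R/K7R calls of the weakest members rested on single arrays and on the processing. A further quantile normalization ended the calls of CCL2 (0.25) and CX3CL1 (-0.28). Centring on the median (-0.28) or averaging probe sets (-0.20) also ended that of CX3CL1. CCL2 had 0.28 without WT replicate 3 and CX3CL1 had -0.30, -0.32 and -0.26 without WT replicate 2, WT replicate 3 and K6R/K7R replicate 1, each under the minimum size. CCL2 passed with ND42 without WT replicate 1 (0.35), WT replicate 2 (0.36) or ND42 replicate 2 (0.37), and after centring on the median (0.33). CCL20 passed with ND42 without K6R/K7R replicate 1 or 3 (0.41 each, adjusted p = 0.00589 and 0.0363). It also passed with only the compared groups fitted (adjusted p = 0.0101), with replicate number as a block (0.0384) and after a further quantile normalization (0.0253). A filter on mean level (0.0278), a trended and robust eBayes (0.0391) and averaged probe sets (0.0366) gave the CCL20 call with ND42 as well.

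When ND42 was set against K6R/K7R, 0 of the 10 genes and 0% of all genes were called by limma, and 2 of the 10, CXCL2 and CCL20, had an unadjusted p under 0.05. CXCL2 differed by -0.23 (95% interval -0.43 to -0.04, adjusted p = 0.341) and CCL20 by -0.33 (-0.62 to -0.04, adjusted p = 0.355). For CXCL8 the interval was -0.22 to 0.19 and for CXCL6 it was -0.31 to 0.15, so a difference of the size seen against WT lay outside both intervals. CXCL3 had an interval of -0.42 to 0.10 and CXCL1 of -0.39 to 0.05.

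Receptors and inducers were read from lists of related genes. Of 8 chemokine receptors, 0 were called with ND42, where 1 had an unadjusted p under 0.05, and CXCR2, the receptor of the ELR members, was called higher with K6R/K7R (0.35, SE 0.09, adjusted p = 0.0178), at means of 4.50 with K6R/K7R and 4.15 with WT, below the group medians of 5.63 to 5.69. Of 14 inducing cytokines, their receptors and NF-kB genes, 2 were higher and 4 lower with ND42, and 3 were higher and 3 lower with K6R/K7R, where 17.8% and 26.0% of all genes were called. IL1A, an epithelial alarm cytokine that induces these chemokines, fell by 1.28 (SE 0.13, adjusted p = 8.24e-05) on the log2 scale with ND42 and by 1.26 (SE 0.13, adjusted p = 7.04e-05) with K6R/K7R. IL1B, which acts on the same receptor, fell by 0.80 (SE 0.07) and by 0.86 (SE 0.07). NFKBIZ, a nuclear cofactor of NF-kB, was lower at -0.62 (SE 0.09) and -0.46 (SE 0.09). In the opposite direction, the NF-kB subunit gene NFKB2 rose by 0.64 (SE 0.10) and 0.80 (SE 0.10) and REL by 0.81 (SE 0.06) and 0.74 (SE 0.06). NFKBIA, the inhibitor that NF-kB itself induces, was called with ND42 alone, at -0.33 (SE 0.06), and IL1R1, the receptor of IL1A and IL1B, with K6R/K7R alone, at 0.39 (SE 0.09), but a difference between the mutants was not called for either.

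Of 23 other chemokines measured, 0 were called with ND42, against 17.8% of all genes, and 4 had an unadjusted p under 0.05. With K6R/K7R, where 26.0% of all genes were called, CCL28 was higher (0.40) and PF4 (-0.60) and CXCL17 (-0.41) were lower. Among 6 genes for shedding proteases and chemokine mRNA decay, ADAM10, which cuts CX3CL1 and CXCL16 from the membrane, was higher with K6R/K7R (0.39, SE 0.06), and ZFP36L2, which promotes decay of AU-rich mRNAs, was lower with ND42 (-0.36, SE 0.07). Markers moved in the same comparisons. CDH1 was higher by 1.07 with ND42 and 1.16 with K6R/K7R, KRT7 had -1.43 and -1.32, and these were the called members of 6 epithelial markers, whose mean level was 7.96 to 7.99 on ND42 arrays, 7.93 to 8.06 on K6R/K7R arrays and 8.07 to 8.16 on WT arrays. Of 5 fibroblast markers, COL1A1 (1.16 and 1.06) and COL1A2 (0.48 and 0.43) were higher with both mutants and DCN was lower with K6R/K7R (-0.35), and their mean level was 7.24 to 7.30 with ND42, 7.15 to 7.29 with K6R/K7R and 6.95 to 6.98 with WT. Of 7 leukocyte markers, CD14 was higher with both mutants (0.51 and 0.37) and CD3E (-0.35) and CSF3R (-0.34) were lower with K6R/K7R, and the mean level of the list was 5.94 to 5.97 with ND42, 5.79 to 5.90 with K6R/K7R and 5.90 to 5.94 with WT. The part of these shifts in the chemokine values was not tested. The gap between 3′ and 5′ probe sets of ACTB was 0.35 to 0.38 with ND42, 0.26 to 0.37 with K6R/K7R and 0.24 to 0.35 with WT.

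In A549 cells, TSA raised CCL20 and CXCL8 and lowered CCL2 and CXCL2, whichever siRNA had been given. CCL20 was 6.50-fold higher after APE1 siRNA and 7.15-fold higher after control siRNA, and CCL2 was 2.78-fold and 3.02-fold lower. After APE1 siRNA, 2 of the 10 genes were higher and 3 lower, where 25.1% of all genes were called (15.3% higher and 9.77% lower). After control siRNA, 2 were higher and 2 lower, where 20.9% were called (11.9% higher and 8.94% lower). Without APE1 siRNA replicate 2, 2 were higher and 4 lower after APE1 siRNA, where 33.2% of all genes were called, and 2 were higher and 3 lower after control siRNA, where 30.8% were. The median of the 10 genes was -0.11 and -0.06 in these comparisons, against 0.01 and -0.04 over all genes.

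CCL20, the CCR6 ligand, was at 10.40, 10.29 and 10.37 after APE1 siRNA with TSA and at 7.66, 7.75 and 7.56 after APE1 siRNA alone. With control siRNA it was at 10.60, 10.78 and 10.68 with TSA and at 7.91, 7.77 and 7.87 without. The TSA arrays were all far above the others, with changes of 2.70 (SE 0.07, adjusted p = 1.74e-08) after APE1 siRNA and 2.84 (SE 0.07, adjusted p = 1.66e-08) after control siRNA. Without replicate 2 the first of these was 2.75 (SE 0.08). CXCL8 was at 11.86, 11.80 and 11.73 after APE1 siRNA with TSA and at 10.64, 10.59 and 10.69 after APE1 siRNA alone. With control siRNA CXCL8 was at 11.85, 11.69 and 11.78 with TSA and at 9.92, 9.91 and 9.99 without. With TSA the arrays of both siRNAs overlapped, whereas without TSA the APE1 siRNA arrays were all above the control siRNA arrays, and the changes were 1.16 (SE 0.06, adjusted p = 9.19e-07) and 1.83 (SE 0.06, adjusted p = 7.19e-08), the first being 1.13 (SE 0.07) without replicate 2. At the second probe set the CXCL8 changes were 1.53 (SE 0.38) and 1.61 (SE 0.38), and the first was 0.96 (SE 0.12) without APE1 siRNA replicate 2.

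CCL2, the monocyte attractant, was at 5.66, 6.04 and 5.59 after APE1 siRNA with TSA and at 7.18, 7.36 and 7.18 after APE1 siRNA alone. With control siRNA it was at 5.97, 6.27 and 6.21 with TSA and at 7.88, 7.60 and 7.74 without. Every TSA array was below every array without TSA. The changes were -1.48 (SE 0.13, adjusted p = 1.98e-05) after APE1 siRNA and -1.59 (SE 0.13, adjusted p = 1.5e-05) after control siRNA, and the first was -1.42 (SE 0.13) without replicate 2. CCL2 and CCL20 bind different receptors, and TSA moved them in opposite directions under both siRNAs.

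CXCL2 was at 9.04, 9.06 and 9.03 after APE1 siRNA with TSA and at 10.96, 10.73 and 10.90 after APE1 siRNA alone. With control siRNA CXCL2 was at 10.82, 10.86 and 10.81 with TSA and at 11.44, 11.39 and 11.35 without. The APE1 siRNA arrays with TSA were the lowest and the control siRNA arrays the highest, and the other groups lay between them. TSA changed CXCL2 by -1.82 (SE 0.07, adjusted p = 6.96e-08) after APE1 siRNA and by -0.56 (SE 0.07, adjusted p = 0.000171) after control siRNA, and the first was -1.88 (SE 0.06) without replicate 2. At the dimmer, non-_x_at probe set of CXCL2 that was also called, the changes were -1.67 (SE 0.12) and -1.54 (SE 0.12). CXCL3 was at 8.83, 8.81 and 8.75 after APE1 siRNA with TSA and at 10.74, 8.99 and 10.71 after APE1 siRNA alone, where the low value is that of replicate 2. With control siRNA CXCL3 was at 10.21, 10.31 and 10.30 with TSA and at 10.81, 10.62 and 10.80 without. The TSA changes were -1.35 (SE 0.37, adjusted p = 0.0231) and -0.47 (SE 0.37, adjusted p = 0.456), and without replicate 2 they were -1.92 (SE 0.07, adjusted p = 6.01e-10) and -0.47 (SE 0.07, adjusted p = 6.25e-05). With all 12 arrays but one, the first of these CXCL3 calls was lost without APE1 siRNA replicate 1 (-1.05) or 3 (-1.07), or without APE1 siRNA with TSA replicate 1 (-1.36), 2 (-1.35) or 3 (-1.32).

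CXCL1 was at 11.14, 11.13 and 11.19 after APE1 siRNA with TSA and at 11.74, 9.59 and 11.75 after APE1 siRNA alone. With control siRNA it was at 11.76, 11.85 and 11.75 with TSA and at 12.06, 12.05 and 11.91 without. Replicate 2 of APE1 siRNA was the lowest CXCL1 array by over 1 log2 unit. After APE1 siRNA the TSA change was 0.12 (SE 0.46, adjusted p = 0.857) with replicate 2 and -0.60 (SE 0.07, adjusted p = 1.19e-05) without it, and after control siRNA it was -0.22 (SE 0.46, adjusted p = 0.83) with all arrays and -0.22 (SE 0.06, adjusted p = 0.0117), under the minimum size, without it. CXCL5 was at 3.58 to 4.05 on 11 of the 12 arrays and at 5.15 on replicate 2 of APE1 siRNA, and CXCL6 was at 3.69 to 4.39 after APE1 siRNA and 3.68 to 3.91 in the other groups. Both lay below the array medians of 6.36 to 6.45. CXCL5, CXCL6, CXCL16 (6.61 to 7.03) and CX3CL1 (6.48 to 6.86) were not called in any A549 comparison, with or without replicate 2.

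**Figure D3:**
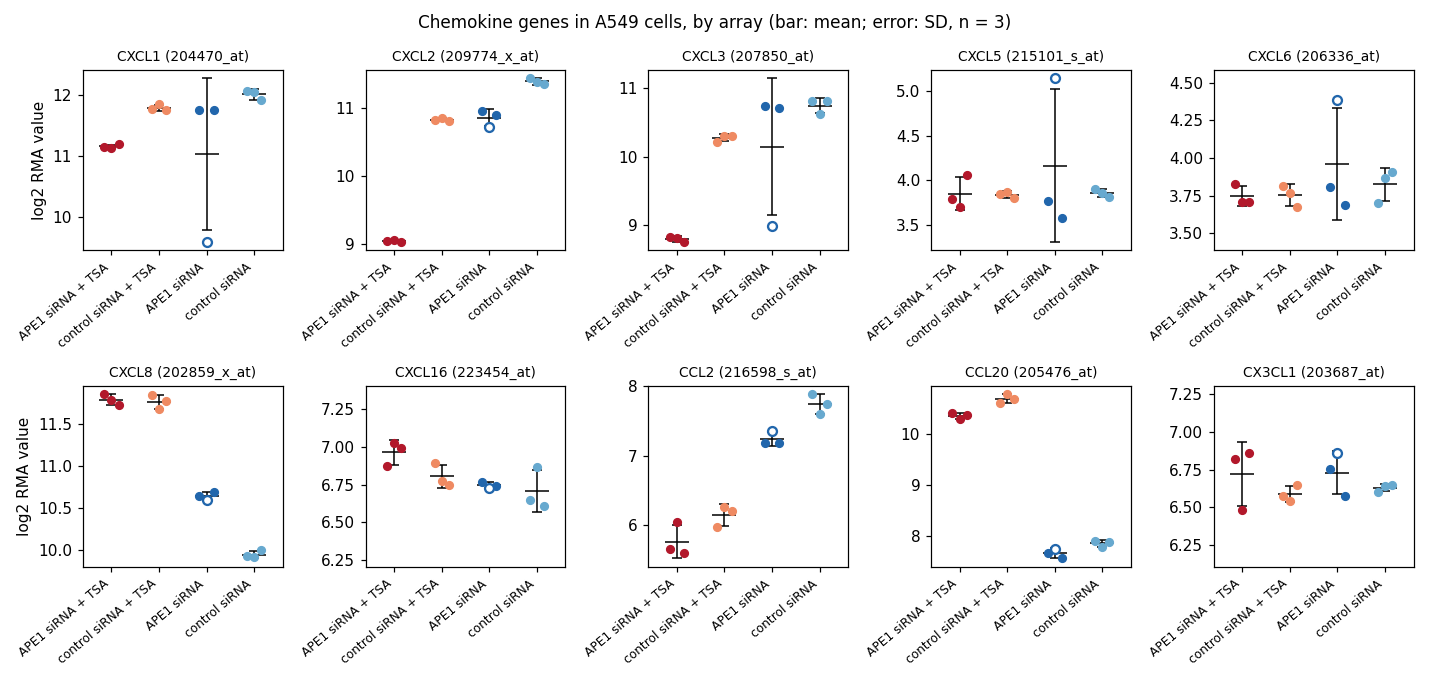
Log2 RMA level of each chemokine gene on the 12 A549 arrays (points), with the mean and SD of each group (n = 3 each); open points are APE1 siRNA replicate 2, and each panel has its own y axis. CCL20 and CXCL8 are higher and CCL2 and CXCL2 lower on TSA arrays than on the arrays of the same siRNA without TSA.

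**Figure D4:**
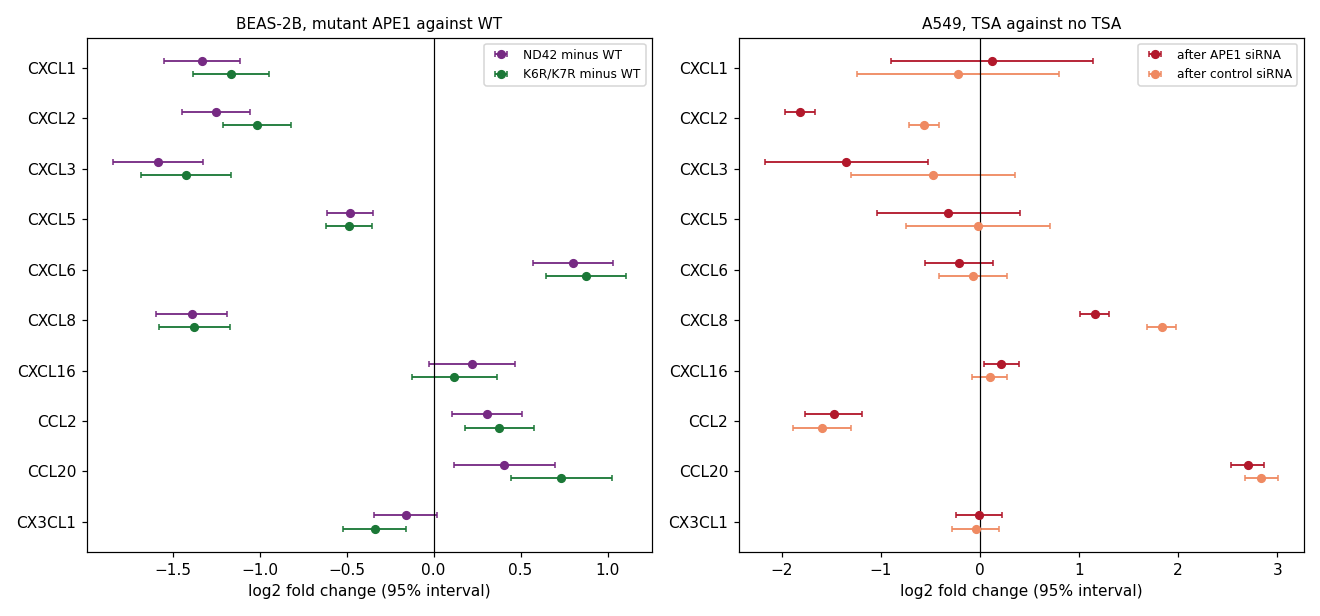
Log2 fold change with its 95% interval for ND42 and K6R/K7R against WT in BEAS-2B cells (left) and for TSA against no TSA after APE1 siRNA and after control siRNA in A549 cells (right). ND42 and K6R/K7R lie close together for CXCL8 at -1.39 and -1.38, and the TSA changes of CXCL2 lie apart at -1.82 and -0.56.

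With TSA present, APE1 siRNA lowered CXCL2 and CCL20, and a change of CXCL8 was not called. Without TSA it raised CXCL8 and lowered CXCL2. CXCL3 was 2.77-fold lower with TSA, with no overlap between the groups, but was not called with all arrays (adjusted p = 0.0533). With TSA, 0 of the 10 genes were higher and 2 lower, where 5.28% of all genes were called (1.91% higher and 3.37% lower). Without TSA, 1 was higher and 1 lower, where 4.94% were called (1.85% higher and 3.09% lower). Leaving out replicate 2 gave 0 higher and 5 lower with TSA, where 10.6% of all genes were called, and 1 higher and 2 lower without TSA, where 9.21% were called. The comparisons with and without TSA share no arrays, only the estimate of the spread.

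After APE1 siRNA, CXCL8 changed by 0.02 (95% interval -0.12 to 0.17) with TSA and by 0.70 (SE 0.06, adjusted p = 0.000212), a 1.62-fold rise, without. Without replicate 2 the second value was 0.73 (SE 0.07, adjusted p = 2.23e-05). At the second probe set it was -0.07 (SE 0.38, adjusted p = 0.94) with replicate 2, which was at 6.78 there against 8.31 and 8.69, and 0.51 (SE 0.12, adjusted p = 0.0132) without it. CXCL2 changed by -1.79 (SE 0.07, adjusted p = 8.95e-07), a 3.45-fold fall, with TSA and by -0.53 (SE 0.07, adjusted p = 0.0014) without. Leaving out replicate 2 gave -0.47 (SE 0.06, adjusted p = 0.000266) for the second value. That second CXCL2 call was lost when only the compared groups were fitted (-0.53, adjusted p = 0.0668) and after a further quantile normalization (-0.11, adjusted p = 0.804). The CXCL8 call without TSA was lost after that normalization (1.08, adjusted p = 0.0566) and when probe sets were averaged (0.32, adjusted p = 0.446). At the dimmer probe set the CXCL2 changes were -0.54 (SE 0.12, adjusted p = 0.0351) and -0.41 (SE 0.12, adjusted p = 0.122), and the second was -0.52 (SE 0.11, adjusted p = 0.00612) without replicate 2. CCL20 had -0.33 (SE 0.07, adjusted p = 0.0318) with TSA and -0.19 (SE 0.07, adjusted p = 0.253) without, and leaving out replicate 2 gave -0.33 (adjusted p = 0.00458) and -0.24 (adjusted p = 0.0694). With all arrays this CCL20 call lay close to both thresholds, and it was lost without control siRNA replicate 1 or 3, APE1 siRNA replicate 1, control siRNA with TSA replicate 2 or 3, or any APE1 siRNA array with TSA, with values of -0.36 to -0.29.

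The calls of CXCL1 and CXCL3 with TSA, and the size of their changes without TSA, varied with APE1 siRNA replicate 2. CXCL3 changed by -1.47 with TSA, with an SE of 0.37 and an adjusted p = 0.0533 over all arrays and an SE of 0.07 and an adjusted p = 1.55e-08 without replicate 2, an array that is in neither group of that comparison and enters through the pooled spread. It was also called without replicate 1 (adjusted p = 0.0434) or 3 (adjusted p = 0.0449) of APE1 siRNA, and after a further quantile normalization (-1.39, adjusted p = 0.00168). Likewise CXCL1 changed by -0.63 with TSA (adjusted p = 0.706 with all arrays and 1.18e-05 without replicate 2). When only the compared groups were fitted, CXCL3 (adjusted p = 7.2e-06) and CXCL1 (adjusted p = 0.000353) were both called lower with TSA. Without TSA, CXCL1 had -0.98 (SE 0.46, adjusted p = 0.378) with all arrays and -0.26 (SE 0.07, adjusted p = 0.0318) without replicate 2, which was under the minimum size, and CXCL3 had -0.60 (SE 0.37) and -0.02 (SE 0.07). For CCL2 the change with TSA was -0.38 (SE 0.13, adjusted p = 0.171) over all arrays and -0.38 (adjusted p = 0.0417) without replicate 2. The CCL2 change in the absence of TSA was -0.50 (SE 0.13, adjusted p = 0.0692) over all arrays and -0.56 (adjusted p = 0.0141) without replicate 2. CCL2 was also called, at -0.52 (adjusted p = 0.0472) with TSA and -0.50 (adjusted p = 0.0318) in its absence, without replicate 2 of APE1 siRNA with TSA. Replicate 2 minus the mean of replicates 1 and 3 was -2.16 for CXCL1, -1.73 for CXCL3, -1.73 for the second probe set of CXCL8 and 1.48 for CXCL5.

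**Figure D5:**
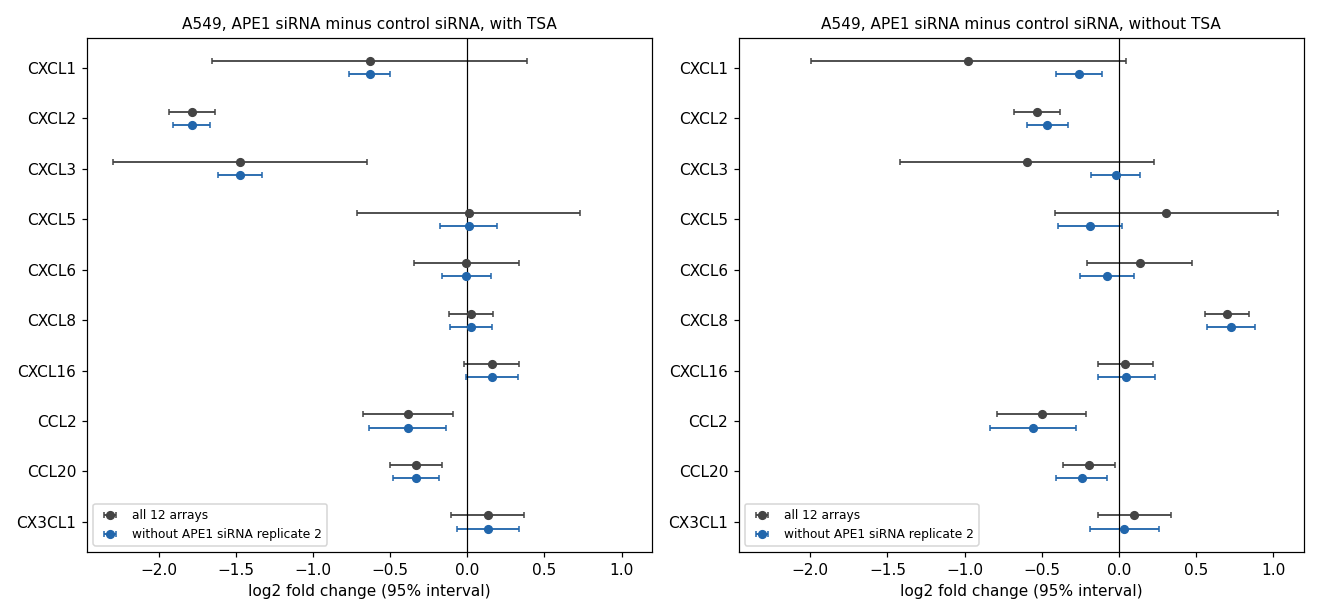
Log2 fold change of each chemokine gene after APE1 siRNA against control siRNA with TSA (left) and without TSA (right), with 95% intervals, from all 12 A549 arrays (grey) and without APE1 siRNA replicate 2 (blue). CXCL2 is lower in both panels at -1.79 and -0.53, and the intervals of CXCL1 and CXCL3 narrow without replicate 2.

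The effect of APE1 siRNA differed with TSA for 2 of the 10 genes, CXCL2 and CXCL8, where 0.121% of all genes were called (0.0202% higher and 0.101% lower). The effect with TSA minus that without was -1.25 (SE 0.09, adjusted p = 0.0045) for CXCL2 and -0.68 (SE 0.09, adjusted p = 0.0452) for CXCL8. Without replicate 2, CXCL2 (-1.32, SE 0.08), CXCL3 (-1.45, SE 0.10, adjusted p = 2.28e-05) and CXCL8 (-0.70, SE 0.10) were called, where 1.81% of all genes were. The CXCL8 call was lost on leaving out any other single array, with differences of -0.72 to -0.64. A further quantile normalization ended both calls (CXCL2 -1.60, adjusted p = 0.252, and CXCL8 -1.02, adjusted p = 0.775). The dimmer CXCL2 probe set gave -0.13 (95% interval -0.51 to 0.26), so the call rests on 1 probe set that can bind other transcripts.

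Receptor genes and inducers were read in A549 cells too. Of the 8 receptors, 0 were called in either siRNA comparison, where 0 with TSA and 2 without had an unadjusted p under 0.05, and CCR2, the receptor of CCL2, was lower with TSA after APE1 siRNA (-0.71, SE 0.20, adjusted p = 0.0238, and -0.43, SE 0.09, without replicate 2), at group means of 5.33 to 6.03, below the array medians. Without replicate 2, CXCR6 was also lower with TSA after control siRNA (-0.34, SE 0.10, adjusted p = 0.0127), where 30.8% of all genes were called. Its group means of 5.89 and 6.22 were below the array medians as well. Of the 14 inducers and NF-kB genes, APE1 siRNA raised 1 and lowered 3 with TSA, and raised 2 and lowered 3 when TSA was absent, where 5.28% and 4.94% of all genes were called. IL1RAP, the shared coreceptor of the interleukin-1 family, rose by 1.45 (SE 0.08, adjusted p = 1.04e-05) with TSA and by 0.93 (SE 0.08, adjusted p = 0.00018) without (0.92 without replicate 2), and TNFAIP3, a ubiquitin-editing inhibitor of NF-kB signalling, was at -0.48 (SE 0.08) and -0.35 (SE 0.08). IL1A was called without TSA (0.48, SE 0.08), as were NFKB2 (-0.49, and -0.37 without replicate 2) and NFKBIZ (-0.38), and IL1R1 (-0.46) and REL (-0.40) were called with TSA. TSA raised 5 and lowered 4 of the 14 after APE1 siRNA, and raised 4 and lowered 3 after control siRNA, where 25.1% and 20.9% of all genes were called. IL1A rose by 0.85 (SE 0.08) after APE1 siRNA and by 1.28 (SE 0.08) after control siRNA, NFKBIZ by 1.81 (SE 0.06) and 1.24 (SE 0.06), and TNFAIP3 by 0.64 and 0.76. The subunit gene NFKB1 was at -1.24 (SE 0.16) and -1.19 (SE 0.16), RELB at -0.56 (SE 0.14) and -0.97 (SE 0.14), and the inhibitor gene NFKBIA at -0.55 (SE 0.08) and -0.58 (SE 0.08). Genes named for NF-kB thus moved both ways under TSA. Without replicate 2 the siRNA counts were 1 and 4 with TSA and 3 and 3 without, where 10.6% and 9.21% of all genes were called, and the TSA counts were 4 and 6 after APE1 siRNA and 4 and 5 after control siRNA, where 33.2% and 30.8% were.

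Of the 6 shedding and decay genes, 0 were called after APE1 siRNA, where 5.28% of all genes were called with TSA and 4.94% without. Of the 6, 1 with TSA and 4 without had an unadjusted p under 0.05. TSA raised ADAM10 (0.40 after APE1 siRNA and 0.51 after control siRNA) and ZFP36 (0.79 and 0.86), which promotes decay of AU-rich mRNAs such as those of several chemokines, and lowered ZFP36L2 (-0.90 and -1.11). Without replicate 2 the ADAM10 call after APE1 siRNA was lost. In that fit 2 of the 6 were called after APE1 siRNA against control siRNA in each comparison, where 10.6% of all genes were called with TSA and 9.21% without. ELAVL1 and ZFP36L1 (-0.38) were lower with TSA, and ELAVL1 was lower and ADAM17 (0.40) higher without. Of the 23 other chemokines, CCL25 (-0.51) and CXCL17 (-0.39) were called lower with TSA after APE1 siRNA, where 25.1% of all genes were called. Without replicate 2, CCL25 (-0.36) and CCL26 (-0.43) were called lower and CXCL17 was not, where 33.2% were. With all arrays 0 were called in the other A549 comparisons, where 1 had an unadjusted p under 0.05 in each siRNA comparison and in that of TSA after control siRNA, and 0 for the difference. The shares of all genes called were 5.28% and 4.94% for APE1 siRNA with and without TSA, 20.9% for TSA after control siRNA and 0.121% for the difference. RNA quality measures moved with the groups. The ACTB gap was 0.90 to 1.05 after APE1 siRNA with TSA, 0.54 to 0.87 after control siRNA with TSA, 0.43 to 6.08 after APE1 siRNA and 0.13 to 0.35 after control siRNA. The GAPDH gap was 0.47 to 0.71 after APE1 siRNA with TSA, 0.04 to 0.12 after control siRNA with TSA, 0.57 to 2.06 after APE1 siRNA and 0.03 to 0.16 after control siRNA. The 6 epithelial markers had mean levels of 7.72 to 7.77 after APE1 siRNA with TSA, 7.54 to 7.59 after control siRNA with TSA, 6.85 to 8.05 after APE1 siRNA and 7.79 to 7.83 after control siRNA, with KRT19 (-0.55) called lower with TSA after APE1 siRNA. Without replicate 2 the KRT19 call was lost. APE1 siRNA against control siRNA then gave 0.48 with TSA and 0.66 without for KRT18, and 0.37 without TSA for KRT8. TSA changed KRT7 by -0.91 after APE1 siRNA and -0.90 after control siRNA, and KRT18 by -0.61 and -0.43. Their part in the chemokine values was not tested.

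The neutrophil chemokines tracked each other, CXCL6 inversely, across the BEAS-2B arrays. Over the 9 arrays CXCL1 correlated with CXCL2 at r = 0.991, with CXCL3 at 0.983, with CXCL8 at 0.988 and with CXCL5 at 0.955, and with CXCL6 at -0.911. CXCL16 had r = 0.0146 with CX3CL1, 0.143 with CCL20, 0.204 with CCL2 and 0.375 with CXCL6, and -0.577 to -0.49 with the other 5 neutrophil chemokines. Over the 12 A549 arrays CXCL8 correlated with CCL20 at 0.924 and with CCL2 at -0.97, where TSA and control arrays form separate clusters. The neutrophil chemokines did not all track each other there. CXCL8 had r = -0.708 with CXCL2, -0.593 with CXCL3 and -0.189 with CXCL1, whereas CXCL3 had 0.891 with CXCL2 and 0.746 with CXCL1. These are descriptions over arrays that share their groups. Among genes with a mean log2 level of at least 6, those most like CXCL8 over the BEAS-2B arrays were ADAMTS6 (r = 0.997), SLCO4A1 (0.996) and JUN (0.996), and those most like CXCL2 were IL6, MPRIP and PSMB7 (0.996 each). The closest to CXCL1 were IGFBP3 (0.998), RAD50 (0.996) and IFIT3 (0.995), and the closest to CXCL3 were PSMC2 (0.999), SLC3A2 (0.996) and AMIGO2 (0.995). In A549 cells CXCL8 was most like GKAP1 (0.995), IL1A (0.993) and PKP2 (0.992), CCL20 was most like FAM8A1 (0.998), SSBP2 (0.997) and GDPD1 (0.996), CCL2 was most like PTPN23 (0.994), LRP8 (0.986) and CYREN (0.982), CXCL2 was most like TFPI (0.997), PHLDA1 (0.985) and ELK3 (0.984), and CXCL3 was most like NR2F1 (0.986), SOX2 (0.977) and TGIF1 (0.973). All A549 correlations include APE1 siRNA replicate 2, the array on which CXCL1 and CXCL3 were far below the other replicates, and were not recomputed without it.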

How the data were processed

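Total RNA from 21 cultures was hybridized to Affymetrix arrays, 1 array per replicate. Per the labels and the methods, the authors processed the arrays with affy, using RMA background correction and quantile normalization, and the deposited log2 values of 54675 probe sets were used as they stand; the versions of affy, RMA and limma were not given in the sources used here. Further tables of log2 fold changes and p-values of the authors' own limma comparisons were deposited and were not used here. Array medians were 6.36 to 6.45 in A549 and 5.60 to 5.70 in BEAS-2B cells, so the lines were normalized apart, and levels are relative within a line. The deposited distributions were alike but not identical within a line: the SD over probe sets was 1.66 for APE1 siRNA replicate 2 and 2.07 to 2.10 for the other A549 arrays.

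Fits were made in R 4.3.3 with limma 3.58.1 (lmFit, eBayes), 1 mean per group, separately for 12 A549 and 9 BEAS-2B arrays, with all samples mapped to a group by their titles. Affymetrix controls (62 probe sets) were dropped, leaving 54613 over which Benjamini-Hochberg adjustment was made. Of these, 41091 carry 1 gene symbol, 1801 several and 11721 none in the platform annotation. Each difference is the siRNA against APE1 less the control, TSA less its absence, a mutant less WT, or ND42 less K6R/K7R. The genes named are the 10 chemokines, members of the receptor, inducer, other chemokine, shedding and decay and cell type marker lists, and the 3 genes with the highest Pearson r to a member that ranged over more than 1 log2 unit. Airway basal, alveolar type 2 and endothelial markers were also read. The members and lists were chosen with earlier results of these data known. An exact permutation test of 3 against 3 arrays cannot go below p = 0.1, so none was run. The fits were tested on simulated data with known changes.

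Results were recomputed with the compared groups alone, with replicate number as a block, after quantile normalization was repeated, after median centring, with probe sets of mean level 6 or more, with a trended and robust eBayes, with probe sets averaged per gene, at an adjusted p below 0.01, with no minimum fold change, and with single arrays dropped. For arrays no depth applies, and their number limits the precision. Promoter windows were searched in Python 3.11.15 with Biopython 1.88, and figures were drawn with matplotlib 3.10.9.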

Additional observations from a re-analysis of the deposited data

Results flagged for a closer look

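Differences between the effect of APE1 siRNA with and without TSA passed the test for CXCL2 and CXCL8. For CXCL2 the effect was -1.79 with TSA and -0.53 without, a difference of -1.25 (SE 0.09, adjusted p = 0.0045 by limma), with the groups separate in both comparisons. The mean of the CXCL2 probe sets gave -0.45 (adjusted p = 0.116). For CXCL8 the effect was 0.02 with TSA and 0.70 without, a difference of -0.68 (SE 0.09, adjusted p = 0.0452 by limma). At its second probe set the difference was -0.07 (SE 0.54, adjusted p = 0.969) with all arrays and -0.65 (SE 0.16, adjusted p = 0.066) without APE1 siRNA replicate 2. The mean of the CXCL8 probe sets gave -0.37 (adjusted p = 0.785). Neither the second probe set nor the mean was called.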

How the results depend on the processing

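With all arrays 2 genes were called for APE1 siRNA without TSA, 2 with TSA and 2 for their difference. For APE1 siRNA without TSA the count was 1 when only the groups compared were fitted, 0 when quantile normalization was repeated, 1 when probe sets were averaged and 3 with probe sets of mean level 6 or more, where CCL2 was added. With TSA it was 3 under that filter, where CXCL3 was added, 4 when only the groups compared were fitted, 1 with the replicate number as a block and 1 at an adjusted p under 0.01. For their difference it was 1 with the replicate number as a block, 0 when quantile normalization was repeated, 1 after centring on the median, 1 with trend and robust, 0 when probe sets were averaged and 1 at an adjusted p under 0.01. Leaving out 1 array gave 1 to 5 for APE1 siRNA with TSA, 2 to 3 without TSA, 1 to 3 for their difference, 4 to 6 for TSA after APE1 siRNA, 4 to 5 after control siRNA, 6 to 7 for ND42, 7 to 9 for K6R/K7R and 0 to 0 for ND42 against K6R/K7R. The TSA change of CXCL1 after APE1 siRNA turned to -0.60 without APE1 siRNA replicate 2, against 0.12 with it, and ranged from -0.60 to 0.49 over single arrays left out. Of 1410 single values under alternatives, 1332 kept their direction or stayed without a call, 49 lost a call, 28 gained one and 1 reversed, and the cause was not tested. Same-numbered arrays were not paired in the main fits. Their residuals correlated at -0.08 to 0.26 in A549 and -0.03 to 0.20 in BEAS-2B cells. For arrays with different numbers the ranges were -0.16 to 0.08 and -0.23 to 0.25. The labels do not say whether a number marks a shared batch, and this was not tested. The replicate block moved the CCL20 call after APE1 siRNA with TSA to an adjusted p = 0.08, the CXCL8 difference to 0.147 and CCL20 with ND42 to 0.0384.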

Other observations

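CCL26, an eosinophil attractant outside the 10 genes, was chosen after its values were seen. In A549 cells it averaged 9.01 ± 0.04 after APE1 siRNA with TSA and 8.58 ± 0.08 after control siRNA with TSA (SD, n = 3 each). Without TSA it averaged 8.56 ± 1.53 after APE1 siRNA, with values of 6.79 to 9.50, and 8.70 ± 0.02 after control siRNA. Without APE1 siRNA replicate 2 its change after APE1 siRNA was 0.43 (SE 0.06, adjusted p = 0.000305 by limma) with TSA and 0.74 (SE 0.07, adjusted p = 1.33e-05) without, and it was the 1 gene of 23 other chemokines called in each. That fit called 10.6% of all genes with TSA and 9.21% without. In the same fit ELAVL1, which encodes the mRNA-stabilizing protein HuR, was at -0.65 (SE 0.06, adjusted p = 5.97e-06) with TSA and -0.51 (SE 0.06, adjusted p = 0.00018) without. TNFRSF1A, a receptor of TNF, was at -1.25 (SE 0.08) with TSA after APE1 siRNA and -0.73 (SE 0.07) after control siRNA, and its difference between siRNAs was called (-0.52, SE 0.11, adjusted p = 0.0335). It was not alone among the 14 inducers and NF-kB genes, of which 2 were higher and 2 lower for this difference. IL1B (-0.46) was also lower, and IL1RAP (0.53) and NFKBIZ (0.54) were higher, where 1.81% of all genes were called. With all arrays 0 of the 14 were called.

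LAMP3 was the alveolar type 2 marker called with both APE1 mutants in BEAS-2B cells, at -1.06 (SE 0.09) with ND42 and -1.15 (SE 0.09) with K6R/K7R, and SFTPC was called with K6R/K7R (-0.37, SE 0.08). The endothelial marker PECAM1 was at -0.35 (SE 0.11) and -0.69 (SE 0.11), and 0 of 3 airway basal markers were called by limma, where 0 with ND42 and 1 with K6R/K7R had an unadjusted p under 0.05. Of all genes, 17.8% were called with ND42 and 26.0% with K6R/K7R. In A549 cells KRT15, 1 of the 3 airway basal markers, was lower after APE1 siRNA without TSA (-0.63, SE 0.11, and -0.70, SE 0.11, without APE1 siRNA replicate 2) and with TSA after control siRNA (-0.40, SE 0.11), as was LAMP3 in the second comparison (-0.38, SE 0.11). Of all genes, 4.94% and 20.9% were called there. Without replicate 2, KRT15 was higher with TSA after APE1 siRNA (0.36, SE 0.11), where 33.2% were called. Its difference between siRNAs was then called too (0.76, SE 0.14), where 1.81% were.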
